A study of Mus musculus with 4 samples.

Results

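Long intergenic noncoding RNAs (lincRNAs) are transcripts made from stretches of DNA between protein-coding genes, and the genes described here are the 130 of them that were expressed above a set level in activated lung group 2 innate lymphoid cells (ILC2s). They were chosen by their level, as the genes of type lincRNA in the deposited annotation whose normalized count, averaged over the 4 libraries of the series, was at least 2, with Gm26825 left out. The 22558 genes of the deposited count table include 1008 lincRNA genes, and 576 of these are also in the normalized table of 18324 genes. Because the level itself chose these genes, the order of their levels and the size of the group are descriptions. The difference between genotypes played no part in the choice except through that mean.

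ILC2s were sorted from lungs of 6-week-old mice as CD45+ Lin- ST2+ CD127+ cells on day 4, after 3 doses of 0.5 µg rmIL-33, an epithelial cytokine that activates these cells, had been given into the nose. The WT group (C57BL/6, wild type at Icam1) and the ICAM-1 KO group (C57BL/6 background, Icam1 deficient by the germline allele of B6.129S4-Icam1tm1Jcgr/J mice, and so in every cell of the mouse) have 2 libraries each, and every library pools 4 mice. The comparison addresses whether ICAM-1, an adhesion protein, changes which RNAs activated ILC2s hold. Cells of both groups had met IL-33, and no unchallenged library was part of the comparison. With pools of mice, p-values measure the spread between pools and not between animals.

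Most lincRNAs are made like messenger RNAs, by RNA polymerase II with a cap, splicing and a poly(A) tail, but they hold no long reading frame of a known protein. Many stay in the nucleus, where some build nuclear bodies, coat a chromosome or act on a gene beside them, and others only carry small RNAs that are cut from their transcripts. In lymphocytes, lincRNAs that host microRNAs or that lie beside survival genes are the best known members of the class.

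The total was 24796148 to 28782471 counts per library, of which the 130 lincRNA genes took 0.605% to 0.687%. Icam1 did not check the genotype labels, since its counts were 2579 and 2630 in WT, and not lower, at 2812 and 3453, in libraries that the labels call ICAM-1 KO (KO-labelled libraries from here on). These are counts of RNA. By flow cytometry of lung ILC2s, the study reports that its ICAM-1-deficient mice lack the protein, which these libraries do not measure. The ILC2 markers Gata3, Il1rl1 and the other 9 genes of the list were present in all 4 libraries, with summed normalized counts of 6967 and 7518 in WT and 6197 and 6501 in KO-labelled libraries, and 2 of the 11 rose and 3 fell. Markers of other lung cells were not equal between the groups. All 12 endothelial markers rose, from sums of 277 and 266 to sums of 676 and 681, and 8 of 10 macrophage and monocyte markers rose, from 461 and 701 to 1589 and 2216. Of the B and plasma cell markers 6 of 8 rose, from sums of 1129 and 2391 to 4459 and 6266, of the T cell markers 5 of 8, from 350 and 432 to 672 and 818, and of the epithelial markers 5 of the 8 tested, from 420 and 189 to 542 and 1371. None of 5 fibroblast markers tested changed, 3 of 5 neutrophil markers rose, and 2 of 4 eosinophil markers rose while the other 2 fell. The part of these cells in any lincRNA difference was not tested, and in such bulk libraries fewer cells of a type and less RNA per cell cannot be told apart.

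A few of the genes whose levels differed are shown first as DNA sequence. Gm6213 had the largest fold change of all tested lincRNA genes, and exon 1 of its 4 exons, at chr8:39297980-39298220 of mm10 (GENCODE M21, plus strand), is 241 bases long. AW112010 and Malat1 are the most abundant of the genes whose levels differed, apart from Gm26917, and Lncpint is the best known of those that rose by at least 2-fold. For these 3 the bases from 250 before to 50 after the RefSeq start are given (GRCm38, minus strand), at chr19:11050517-11050816, chr19:5802623-5802922 and chr6:31218425-31218724. Capitals mark motif matches found on either strand.
Gm6213 exon 1: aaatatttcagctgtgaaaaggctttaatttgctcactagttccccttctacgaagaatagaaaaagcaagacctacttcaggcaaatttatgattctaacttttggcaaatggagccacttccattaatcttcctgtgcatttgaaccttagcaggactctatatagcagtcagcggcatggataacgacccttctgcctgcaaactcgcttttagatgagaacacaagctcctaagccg
AW112010 promoter: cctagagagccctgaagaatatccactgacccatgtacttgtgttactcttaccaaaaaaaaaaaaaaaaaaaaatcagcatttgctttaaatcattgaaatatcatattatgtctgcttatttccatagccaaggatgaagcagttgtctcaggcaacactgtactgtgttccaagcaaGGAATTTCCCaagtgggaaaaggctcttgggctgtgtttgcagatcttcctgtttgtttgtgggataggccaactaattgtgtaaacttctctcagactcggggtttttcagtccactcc
Malat1 promoter: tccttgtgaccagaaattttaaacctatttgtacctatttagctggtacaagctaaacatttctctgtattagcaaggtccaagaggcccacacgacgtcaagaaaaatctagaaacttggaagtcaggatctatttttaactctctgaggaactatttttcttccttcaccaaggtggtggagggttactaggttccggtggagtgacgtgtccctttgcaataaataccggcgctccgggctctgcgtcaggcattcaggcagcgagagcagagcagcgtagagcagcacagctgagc
Lncpint promoter: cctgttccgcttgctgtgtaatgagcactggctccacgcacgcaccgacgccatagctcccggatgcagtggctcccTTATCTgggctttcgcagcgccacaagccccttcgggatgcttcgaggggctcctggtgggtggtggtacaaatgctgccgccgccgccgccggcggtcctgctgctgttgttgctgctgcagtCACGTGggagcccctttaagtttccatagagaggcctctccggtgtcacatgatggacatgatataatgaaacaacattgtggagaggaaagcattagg

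The capitals in the AW112010 promoter are a match to the NF-kB site, searched as GGGA and TTCC with any 2 bases between them, at position -70 from the start. This site was in 1.47% of the 32817 mouse promoters of the same length. In the Lncpint promoter the capitals are a GATA site, searched as AGATAA, at -173 and an E-box, CACGTG, at -49, which were in 11.2% and 7.15% of all promoters. The Malat1 window held none of the motifs searched, which also were the TATA box TATAAA, the AP-1 site TGANTCA, the STAT site TTCNNNGAA, the ETS site CCGGAAGT, the ISRE core (GAAA at each end of any 2 bases) and the CRE TGACGTCA. Promoters were found for 59 of the 130 genes, and their median GC content of 51.3% stood beside 52.7% over all promoters. Each was set at the RefSeq start nearest the annotated start of the gene. That distance was 0 bases for AW112010 and Malat1, 2014 for Lncpint and as much as 9856 for Mir155hg, so some windows are not at the annotated start. The NF-kB site was in 1.69% of these 59 promoters, the E-box in 6.78% and the GATA site in 15.3%, beside the shares over all promoters given above, and these differences were not tested. Such a match is a run of letters and was not tested as a binding site.

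A few lincRNA genes held most of the RNA of the class. Gm26917 had 2872 and 2381 normalized counts in WT and 1893 and 1455 in KO-labelled libraries, and alone made up 37.4% of the summed mean level of the 130 genes. Malat1 followed with a mean of 1157 and AW112010 with 620, and these top 3 genes held 68.2% of the sum. After them came Gm10076 (mean 179), Gm26809 (125), Xist (121), Gm42031 (114), Neat1 (98.8), AU020206 (92.7) and 1700020I14Rik (91.4). Most other genes were far lower. A mean of 100 or more was reached by 7 genes, 25 lay between 10 and 100, 34 between 5 and 10, and 64 between 2 and 5, with a median of 5.09 over all 130.

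**Figure D1:**
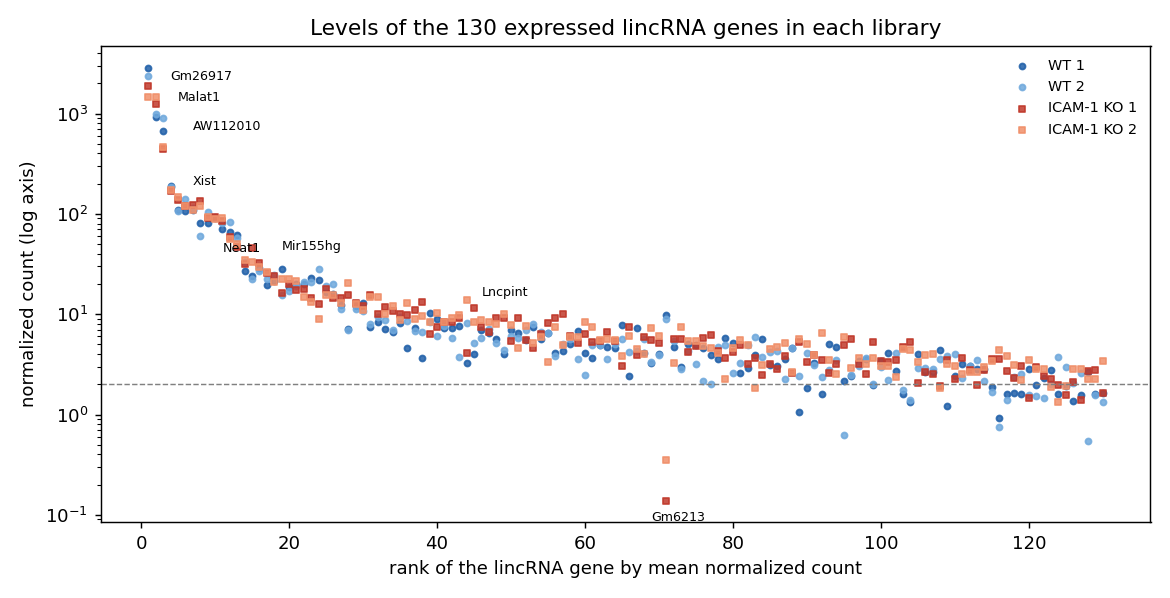
Normalized counts (log axis) of the 130 lincRNA genes in the 2 WT libraries (blue circles) and the 2 KO-labelled libraries (red and orange squares), ordered on the x axis by their mean, with the limit of 2 as a dashed line. Gm26917, Malat1 and AW112010 stand above the rest, and Gm6213 is the gene whose 2 KO-labelled points, at 0.139 and 0.35, lie far under its WT points of 9.84 and 8.87.

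Since a long transcript gathers more reads, levels were also set per kilobase of exon. On that scale AW112010, whose exons span 804 bases, came first at 772 normalized counts per kb. Gm26917 had 646, Gm10076 467 and Malat1 166 per kb, and the next were Gm42031 (60.2), Gm26809 (42.02) and Gm14275 (41.4). Neat1, whose annotated exons cover 20771 bases, had 4.75 per kb.

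The leading position of Gm26917 needs a caution. Gm26917 (chr17:39843013-39846341) and Gm42418 (chr17:39846958-39848788) lie beside and across the annotated ribosomal RNA gene CT010467.1, which had 7972 and 9811 normalized counts in WT and 7918 and 5627 in KO-labelled libraries. The level of that gene was highest in WT replicate 2, while Gm26917 was highest in WT replicate 1. Gm42418, with 66.0 and 82.1 in WT and 58.9 and 55.7 in KO-labelled libraries, was also highest in WT replicate 2. With these 2 rows, the summed level of the 130 genes was 6185 and 6036 in WT against 5505 and 5299 in KO-labelled libraries. Without them the sums were 3247 and 3573 against 3553 and 3788, so that the order of the group means turned round. The share of ribosomal RNA in the reads of these 2 genes was not tested.

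One normalized count stood for about 30 counts, and the lowest summed count of any of the 130 genes over the 4 libraries was 243. Of the 130 genes, 129 had at least 10 counts in every library, and the exception was Gm6213 with 3 counts in 1 of them. The level was at least 2 in every library for 101 genes. For 15 genes the WT mean was under 2 and for 4 genes the mean of the KO-labelled libraries was, so these passed the limit through the other group. Just inside the limit were C920006O11Rik (mean 2.01), D930016D06Rik (2.06) and Gm26857 (2.06). Just outside it were Gm26526 (1.95), 2310069B03Rik (1.95) and Prr33 (1.94).

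Libraries of a group were close to each other for high genes and less so for low ones. The median gene differed 1.22-fold between the 2 WT libraries and 1.21-fold between the 2 KO-labelled libraries, against 1.34-fold between the group means. Among the 7 genes with a mean of 100 or more these values were 1.06, 1.08 and 1.34. Among the 64 genes between 2 and 5 they were 1.36, 1.31 and 1.40. A mean of 2 libraries varies less than a single library, so the last value of each set is not on the same footing as the others.

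Differences between genotypes were tested in a fit across 11711 genes, in which 115 of the 130 lincRNA genes passed the filter on low values. Of these 115, 7 were higher in KO-labelled libraries by at least 2-fold at an adjusted p under 0.05 (6.09% of them, against 4.94% of all genes tested). At least 2-fold lower were 2 (1.74%, against 0.538% of all genes). With no limit on the fold, 12 rose (10.4%, against 8.8%) and 4 fell (3.48%, against 4.97%). The 16 changed genes are 13.9% of those tested, beside 13.8% of all genes, so that lincRNA genes were called about as often as other genes. Calls depend on level, whose median was 5.09 in the 130 lincRNA genes and 30.2 in protein-coding genes at the same limit. Of the 7 that were higher, 4 had a WT mean under 2 and so passed the limit through the group where they were high, and of the 2 that were lower this held for Gm6213. Fits without 1 library are given below for the changed genes. Such a fit leaves 1 library in a group, takes the spread from the other group's 2 libraries and assumes that the lone library varies like them, so a call lost there is not a smaller difference.

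**Figure D2:**
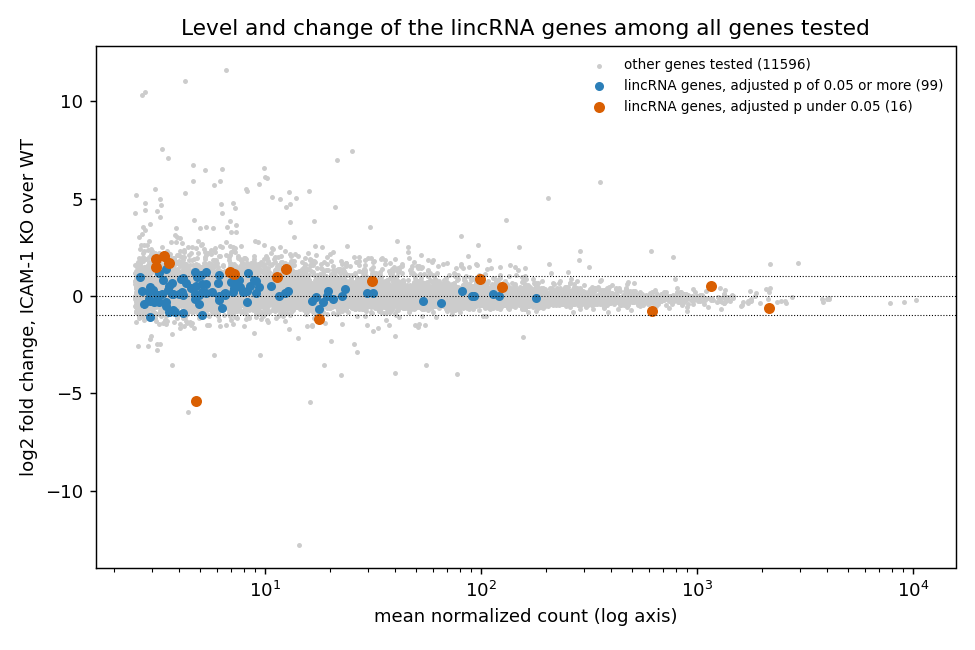
Log2 fold change (KO-labelled over WT libraries) against the mean normalized count (log axis) of the 11711 genes tested, with 2-fold changes as dotted lines. The 16 lincRNA genes with an adjusted p under 0.05 (orange) run from -5.38 in Gm6213 to 2.03 in Gm26732, and 99 lincRNA genes (blue) did not pass.

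The differences leaned upwards. The log2 fold change was above 0 in 81 of the 115 genes tested (70.4%, against 51.2% of all genes tested), and its median was 0.19 against 0.01. At the same limit of 2, this share was 58.2% for antisense genes, 57.5% for processed transcripts, 70.8% for genes of type TEC, which await experiments, and 51.3% for protein-coding genes, whose median level was 30.2 against 5.09. Both KO-labelled libraries lay above both WT libraries in 49 of the 115 (42.6%, against 28.3% of all genes) and below them in 22 (19.1%, against 31.3%). The remaining 44 overlapped. Whether these shares differ was not tested.

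Gm6213 was nearly lost from KO-labelled libraries. The WT libraries held 297 and 279 of its counts and the KO-labelled libraries 3 and 10, or 9.84, 8.87, 0.139 and 0.35 normalized counts. The groups were far apart, and the summed counts, 576 against 13, differed 43.1-fold after division by the normalization factors, with an exact 95% interval of 25.01 to 81.5 that covers counting error only. The log2 fold change was -5.38 (SE 0.563, adjusted p = 0.000734 by edgeR's quasi-likelihood test). In limma, fitted to log2 values after 1 was added to each normalized count, a scale that understates changes of low genes, it was -3.06. Leaving out KO-labelled replicate 1 gave -4.82 and leaving out KO-labelled replicate 2 gave -6.41, with adjusted p-values of 0.00759 or less whichever library was left out. Gm6213 spans chr8:39297980-39368268, shares no exon bases with another annotated gene, and has no role known well enough to state. Its nearest protein-coding gene by start site, Tusc3, a subunit of the oligosaccharyl transferase, lies 292135 bases away and had 114 and 124 normalized counts in WT and 116 and 111 in KO-labelled libraries (log2 fold change -0.03, adjusted p = 0.853). The eosinophil marker Epx, named here for its values, had 1027 and 739 counts in WT and 0 and 0 in KO-labelled libraries. Of the 4 eosinophil markers tested, 2 fell and 2 rose. The part of eosinophils in the level of Gm6213 was not tested.

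AW112010, a lincRNA gene of immune cells that is induced in inflammation and part of which is known to be translated, fell. Its 670 and 902 normalized counts in WT stood against 442 and 467 in KO-labelled libraries. The groups did not overlap, and WT replicate 2 was the highest. The log2 fold change was -0.76 (SE 0.130, adjusted p = 0.00796), and it ranged from -0.96 without WT replicate 1 to -0.53 without WT replicate 2, with an adjusted p of 0.0332 or less. This is the gene whose promoter with an NF-kB match is printed above.

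Gm14275, a short transcript of 430 exon bases on chromosome 2, also fell. It had 21.7 and 27.9 normalized counts in WT and 12.8 and 8.89 in KO-labelled libraries. Its log2 fold change was -1.18 (SE 0.241, adjusted p = 0.0153), but without WT replicate 2 the adjusted p was 0.0883. Gm26917, with the values given above, fell by 0.62 on the log2 scale (SE 0.134, adjusted p = 0.0181). Without WT replicate 1 its adjusted p was 0.126, and the neighbouring Gm42418 had a log2 fold change of -0.34 (adjusted p = 0.116) and CT010467.1 one of -0.37 (adjusted p = 0.159).

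Malat1 and Neat1, the nuclear RNAs of the speckle and the paraspeckle, lie beside each other on chromosome 19 and both rose. Malat1 (chr19:5795690-5802672) had 931 and 983 normalized counts in WT and 1255 and 1459 in KO-labelled libraries. Neat1 (chr19:5824708-5845478), the scaffold on which paraspeckles form, had 81.2 and 59.7 in WT and 135 and 119 in KO-labelled libraries. The groups did not overlap in either gene. The log2 fold change was 0.88 for Neat1 (SE 0.146, adjusted p = 0.00705) and 0.53 for Malat1 (SE 0.0984, adjusted p = 0.0108). That of Neat1 had an adjusted p of 0.0619 with no filter on low counts. It kept an adjusted p of 0.0301 or less without any single library and ranged from 0.67 without WT replicate 2 to 1.12 without WT replicate 1. For Malat1 the adjusted p was 0.081 without WT replicate 1 and 0.0578 without WT replicate 2. Both genes share exon bases with other annotated genes. The genes whose proteins build paraspeckles, such as Nono, Sfpq and Pspc1, had a median log2 fold change of 0.01. None of these 11 had an adjusted p under 0.05, beside 13.8% of all genes tested that did.

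**Figure D3:**
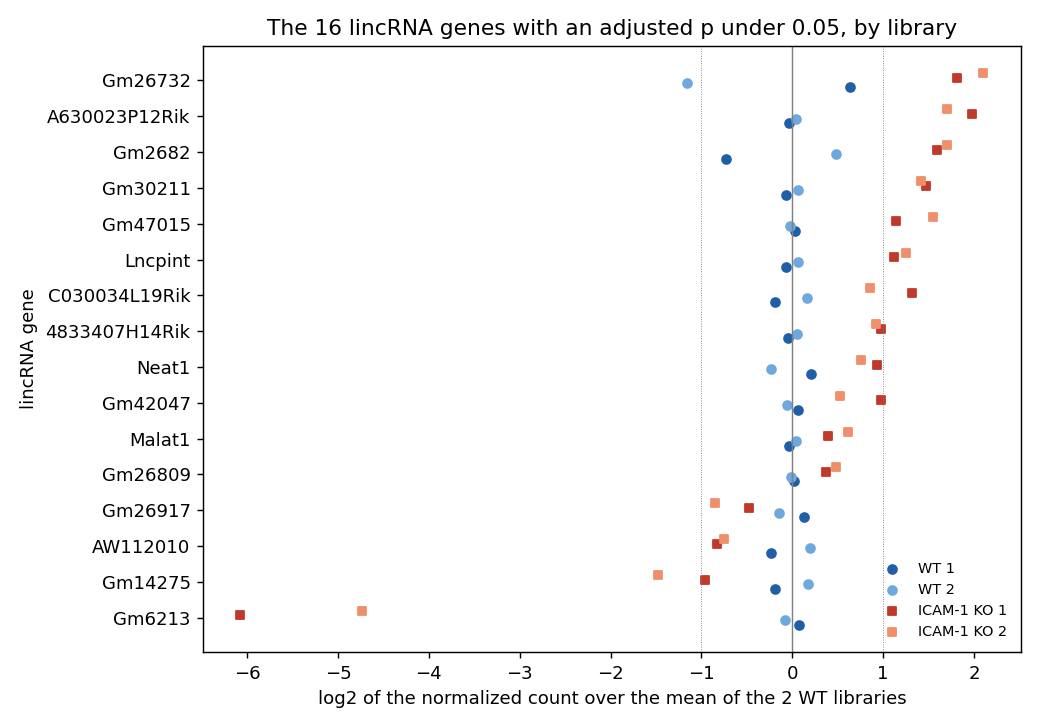
The 16 lincRNA genes with an adjusted p under 0.05, each library's normalized count drawn as a log2 ratio to the mean of the 2 WT libraries (circles WT, squares KO-labelled). In all 16 the KO-labelled libraries lie on 1 side of both WT libraries, which the choice by adjusted p makes likely. Of all genes tested, 28.3% had both KO-labelled libraries above both WT libraries and 31.3% had both below. The WT libraries are widest apart in Gm26732 and Gm2682.

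Lncpint, a lincRNA that p53 induces and that restrains growth of several cell types, rose from 4.01 and 4.40 normalized counts in WT to 9.11 and 10.0 in KO-labelled libraries. Its log2 fold change was 1.22 (SE 0.296, adjusted p = 0.029). The call was kept without KO-labelled replicate 1 (adjusted p = 0.0461) and lost without KO-labelled replicate 2 (0.0964), WT replicate 1 (0.104) or WT replicate 2 (0.0883). Lncpint shares exon bases with 2210408F21Rik on the opposite strand, and the cDNA kit does not mark strand. 2210408F21Rik had 1.34 and 2.60 normalized counts in WT and 2.69 and 2.82 in KO-labelled libraries.

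The largest rises were seen in genes of low level. Gm26732 had 2.15 and 0.622 normalized counts in WT and 4.88 and 5.95 in KO-labelled libraries, a log2 fold change of 2.03 (SE 0.511, adjusted p = 0.0334). Its WT libraries differed more from each other than its KO-labelled libraries did, and the log2 fold change was 3.19 without WT replicate 1 and 1.38 without WT replicate 2 (adjusted p = 0.0352 and 0.14). Without KO-labelled replicate 2 the adjusted p was 0.0582. The gene starts 3199 bases from that of Sidt1, a membrane protein linked to RNA transport, and shares exon bases with it. Sidt1 itself had 19.3 and 11.4 normalized counts in WT and 22.5 and 26.6 in KO-labelled libraries (log2 fold change 0.71, adjusted p = 0.0963), so that in both genes WT replicate 2 was the lowest library.

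A630023P12Rik had 1.32 and 1.39 normalized counts in WT and 5.35 and 4.43 in KO-labelled libraries, from 39, 43, 153 and 138 counts. Its log2 fold change was 1.89 (SE 0.430, adjusted p = 0.0229). The gene shares no exon bases with another gene, and its libraries were alike within each group. Still, its adjusted p was 0.0532 without KO-labelled replicate 1, 0.0842 without WT replicate 1 and 0.0891 without WT replicate 2.

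Gm2682 had 1.06 and 2.44 normalized counts in WT and 5.28 and 5.70 in KO-labelled libraries (log2 fold change 1.69, SE 0.447, adjusted p = 0.0388). Its log2 fold change was 1.21 without WT replicate 1 and 2.44 without WT replicate 2, with adjusted p-values of 0.153 and 0.053, and without KO-labelled replicate 2 the adjusted p was 0.0785. Gm47015 had 7.16 and 6.90 in WT and 15.5 and 20.6 in KO-labelled libraries (log2 fold change 1.40, SE 0.257, adjusted p = 0.0105). Among the 7 genes that were at least 2-fold higher it had the highest level and the smallest adjusted p, which was at most 0.0497 without WT replicate 1 or a KO-labelled library and 0.0531 without WT replicate 2.

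Gm30211 had 1.62 and 1.77 normalized counts in WT and 4.69 and 4.52 in KO-labelled libraries (log2 fold change 1.48, SE 0.407, adjusted p = 0.0437). The replicates were close, but its adjusted p was 0.103 to 0.133 whichever library was left out. Its gene body (chr6:70719074-70740554, plus strand) spans Igkc, the constant region of the kappa light chain of antibodies, which lies in an intron on the same strand. Igkc had 487 and 1681 normalized counts in WT and 2405 and 4181 in KO-labelled libraries. Igkc thus differed between libraries of a group where Gm30211 did not, and its part in the reads of Gm30211 was not tested. C030034L19Rik, which shares exon bases with Zfp704, had 4.03 and 5.16 in WT and 11.4 and 8.34 in KO-labelled libraries (log2 fold change 1.13, SE 0.316, adjusted p = 0.0464). Without KO-labelled replicate 1, WT replicate 1 or WT replicate 2 its adjusted p was 0.21, 0.167 and 0.0991.

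The 3 other genes that rose did so by less than 2-fold. 4833407H14Rik, which shares exon bases with Mirt1 on the other strand, had 7.53 and 8.04 normalized counts in WT and 15.4 and 14.8 in KO-labelled libraries (log2 fold change 0.98, SE 0.235, adjusted p = 0.028). Gm42047 had 24.2 and 22.2 in WT and 45.5 and 33.4 in KO-labelled libraries (0.79, SE 0.182, adjusted p = 0.024). Gm26809 had 108 and 106 in WT and 138 and 149 in KO-labelled libraries (0.45, SE 0.0964, adjusted p = 0.018). Their log2 fold changes without single libraries ran from 0.93 to 1.03 for 4833407H14Rik, 0.39 to 0.51 for Gm26809 and 0.56 to 0.99 for Gm42047, and their calls were lost in some of these fits. The adjusted p of 4833407H14Rik was 0.066 to 0.0987 whichever library was left out. That of Gm42047 was 0.129, 0.0743 and 0.104 without KO-labelled replicate 1, WT replicate 1 and WT replicate 2, and that of Gm26809 was 0.0794, 0.0665 and 0.0803 without KO-labelled replicate 2, WT replicate 1 and WT replicate 2. Of all 16 changed genes, only AW112010, Gm6213 and Neat1 kept an adjusted p under 0.05 whichever library was left out, and with no filter on low counts only AW112010, Gm6213, Malat1 and Gm47015 did.

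A further 8 genes differed by at least 2-fold without passing the adjusted p. Of these, 7 had a positive log2 fold change, and Lppos had a negative one (-1.06, adjusted p = 0.125). Gm26532, which carries the microRNA gene Mir24-2, came closest, with 4.13 and 3.83 normalized counts in WT and 9.09 and 7.42 in KO-labelled libraries (log2 fold change 1.08, SE 0.314, adjusted p = 0.0513). Gm37494 followed with an adjusted p of 0.0538, 1700061F12Rik with 0.0553 and Gpr141b with 0.0623. These genes were chosen for their values.

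RNAs of the X inactivation centre showed no difference that passed the test. Xist, which coats the inactive X chromosome of female cells, had 106 and 141 normalized counts in WT and 120 and 118 in KO-labelled libraries (log2 fold change -0.02, SE 0.133, adjusted p = 0.936). The KO-labelled libraries lay between the WT libraries. Jpx, an activator of Xist, had 1.86 and 4.12 in WT and 3.30 and 5.06 in KO-labelled libraries (adjusted p = 0.500). Ftx, which lies next to it and holds Mir374b and Mir421, had 3.59 and 4.72 in WT and 4.34 and 4.14 in KO-labelled libraries (adjusted p = 0.943). With Firre and Tsix, which are of other gene types, none of 5 RNAs of the X chromosome changed, beside 13.8% of all genes tested. None of the 10 genes of proteins that bind Xist changed either, with a median log2 fold change of -0.01.

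Host genes of small nucleolar RNAs, which guide the modification of ribosomal RNA from the introns of otherwise noncoding transcripts, held no gene that passed the test. Snhg6 had 15.98 and 20.1 normalized counts in WT and 14.5 and 15.5 in KO-labelled libraries (log2 fold change -0.24, SE 0.213, adjusted p = 0.485). Snhg20 had 12.3 and 11.3 against 14.6 and 12.95, Snhg12 had 4.13 and 5.70 against 5.94 and 4.01, and Epb41l4aos had 3.60 and 3.64 against 2.53 and 3.19. Together with hosts of other gene types, none of 13 such genes tested changed (median log2 fold change -0.03), beside 13.8% of all genes tested. Of the 10 genes of proteins that bind these small RNAs, 9 fell, beside 4.97% of all genes tested. Each fell by less than 2-fold, and the median of the 10 was -0.48. Among them were Fbl, the methyltransferase of these particles (log2 fold change -0.50, adjusted p = 0.0108), and Dkc1, the pseudouridine synthase (-0.51, adjusted p = 0.0098). Hosts of low level had larger standard errors, such as 0.363 for Snhg12 beside 0.0918 for Fbl, while that of the abundant host Gas5 was 0.0876. The difference between hosts and protein genes was not tested.

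MicroRNA host transcripts are shown with the small RNAs they carry, since the libraries measure the host and not the mature microRNA. Mir155hg (chr16:84703167-84715245), the host of miR-155, which activated lymphocytes make, had 21.5 and 24.6 normalized counts in WT and 23.98 and 20.9 in KO-labelled libraries. The groups overlapped (log2 fold change -0.01, SE 0.179, adjusted p = 0.972). Mir17hg (chr14:115042879-115046727), the host of a cluster of microRNAs that favours lymphocyte growth, had 1.62 and 3.77 in WT and 1.99 and 1.34 in KO-labelled libraries and was too low for the test. None of the 4 genes tested from the list of microRNA hosts changed, beside 13.8% of all genes tested. They were Mir155hg, Mir22hg, Dleu2 and Mir6236, of which Mir6236 is annotated as a microRNA and not as a host transcript. The mature sequences follow (RefSeq, GRCm38), with the seed, bases 2 to 8, in capitals.
mmu-miR-155-5p: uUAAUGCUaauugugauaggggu
mmu-miR-17-5p: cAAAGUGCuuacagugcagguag
mmu-miR-20a-5p: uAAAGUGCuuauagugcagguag
mmu-miR-18a-5p: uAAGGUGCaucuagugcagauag
mmu-miR-19a-3p: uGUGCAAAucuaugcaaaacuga
mmu-miR-19b-3p: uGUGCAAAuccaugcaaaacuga
mmu-miR-92a-3p: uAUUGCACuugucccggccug

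Within the cluster of Mir17hg, miR-17 and miR-20a share the seed AAAGUGC, and miR-19a and miR-19b share GUGCAAA. The seeds of the others, of miR-155 too, occurred once in this set. Over all 130 genes, 10 hold an annotated microRNA or small nucleolar RNA. None of the 9 tested changed, beside 13.8% of all genes tested, and so few genes cannot show a different share. Their log2 fold changes ran from -0.31 in Epb41l4aos to 1.08 in Gm26532.

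Among lincRNAs tied to growth, genome stability and survival, Lncpint, described above, was the only one of 4 that rose, and none fell. Tug1 and Ptprv, listed with them but of other gene types, did not pass the test. 2900097C17Rik (Norad), which binds Pumilio proteins and guards chromosome number, had 70.4 and 81.1 normalized counts in WT and 84.9 and 90.3 in KO-labelled libraries (log2 fold change 0.24, SE 0.115, adjusted p = 0.202). Gm14005 (Morrbid), which holds down its neighbour Bcl2l11 and so lengthens the life of myeloid cells, had 7.23 and 7.60 in WT and 8.43 and 8.28 in KO-labelled libraries (0.20, SE 0.268, adjusted p = 0.665). Bcl2l11, which codes for the cell death protein BIM, had 23.6 and 20.1 in WT and 52.1 and 53.8 in KO-labelled libraries, a log2 fold change of 1.30 (SE 0.147, adjusted p = 0.00143). This neighbour rose, and Gm14005 did not pass the test. Bcl2l11 was named for this known relation after its value had been seen. None of the listed imprinted RNAs was a lincRNA gene above the limit, and neither of the 2 tested changed.

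Pvt1 lies downstream of Myc and is known as a partner of that growth gene. It had 6.69 and 6.89 normalized counts in WT and 10.9 and 12.1 in KO-labelled libraries (log2 fold change 0.79, SE 0.259, adjusted p = 0.0743). Myc had 88.0 and 78.7 in WT and 55.7 and 63.8 in KO-labelled libraries (log2 fold change -0.45, SE 0.123, adjusted p = 0.0417). The libraries of the groups did not overlap in either gene, and the direction was opposite, but Pvt1 did not pass the test. Lockd, which starts 8691 bases from Cdkn1b, a brake of the cell cycle, had 27.1 and 32.8 in WT and 31.9 and 34.3 in KO-labelled libraries (adjusted p = 0.517). Cdkn1b rose from 15.4 and 16.2 to 27.0 and 23.5 (log2 fold change 0.70, adjusted p = 0.0373).

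Position was not used to choose the genes, so it could be set beside their differences. The median distance between the start of a lincRNA gene and that of the nearest protein-coding gene was 24776 bases, and 26 genes lay head to head with it within 5000 bases. Of the 23 of these that were tested, 2 changed, Gm42047 beside Klhdc4 and Gm26732 beside Sidt1, where 13.8% of all genes tested did. In 78 pairs both genes were tested, and their log2 fold changes had the same sign in 43 pairs. Among head-to-head pairs this was so in 12 of 21. Across the 78 pairs Pearson's r was 0.128 and Spearman's rho 0.166, given as a description, since all pairs come from the same 4 libraries.

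In no pair did both genes have an adjusted p under 0.05. Only 10 of the changed lincRNA genes had a tested neighbour, too few to show a share other than the 13.8% of all genes tested. The neighbour changed in 10 of the 78 pairs, beside 13.8% of all genes tested. Among these pairs was 4933405E24Rik beside Csf2, a cytokine gene of ILC2s. 4933405E24Rik had 5.68 and 3.77 normalized counts in WT and 2.46 and 3.15 in KO-labelled libraries (log2 fold change -0.72, adjusted p = 0.269), and Csf2 had 419 and 320 in WT and 218 and 271 in KO-labelled libraries (-0.57, adjusted p = 0.0352). 4933424M12Rik, beside the lipoprotein receptor gene Lrp8, had 7.89 and 5.70 in WT and 3.02 and 3.82 in KO-labelled libraries (-0.96, adjusted p = 0.108), and Lrp8 fell by 0.61 on the log2 scale (adjusted p = 0.0447). 5031425E22Rik starts 172 bases from Kmt2e and had 18.8 and 16.9 against 19.9 and 22.5 (0.28, adjusted p = 0.361), while Kmt2e rose by 0.48 (adjusted p = 0.0146). These 3 pairs were chosen after their values were seen.

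**Figure D4:**
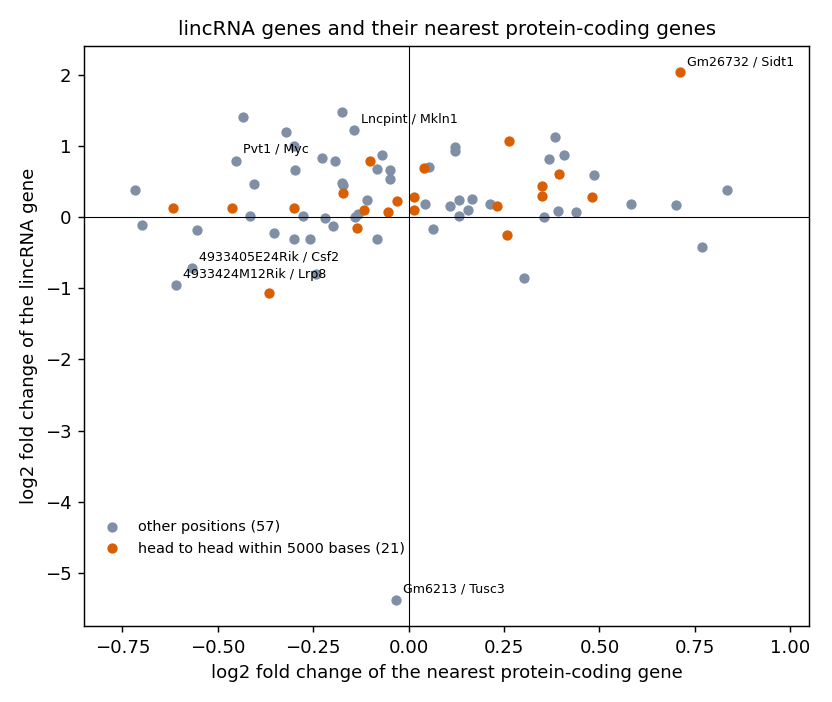
Log2 fold changes of 78 lincRNA genes (y axis) against those of their nearest protein-coding genes (x axis), with the 21 head-to-head pairs in orange. The points lie on both sides of 0 on each axis, with 43 of 78 on the same side of 0 in both genes, and Gm6213 lies alone at the bottom while its neighbour Tusc3 is near 0.

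The genes were spread over the genome, with 13 on chromosome 8, 12 on chromosome 17 and 10 on chromosome 10. Only Gm26870 lay within 20 Mb of Icam1, of 3 on chromosome 9. It had 4.58 and 5.05 normalized counts in WT and 5.38 and 5.48 in KO-labelled libraries (log2 fold change 0.20, adjusted p = 0.72). Of the 128 genes found in GENCODE M21, 49 share exon bases with a gene on the opposite strand and 10 with one on the same strand, 53 in all. Reads from bases shared with the opposite strand cannot be assigned by strand here. Shared exon bases touch 7 of the 16 changed genes, namely Neat1, Malat1, Gm26809, 4833407H14Rik, Lncpint, Gm26732 and C030034L19Rik. Neat1 shares them only with genes on its own strand, where a mark of strand would not part the reads.

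The 15 genes left out of the test had means between 2 and 2.5. Gm19951 was the one with the largest difference, with 27 and 23 counts in WT against 102 and 136 in KO-labelled libraries. In the fit with no filter its log2 fold change was 2.27 (SE 0.447, adjusted p = 0.0623). Gm15706 followed at 1.13 (adjusted p = 0.21), and the other 13 lay between -0.75 in Mir17hg and 0.78 in C920006O11Rik.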

How the data were processed

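Sorted lung ILC2s of 2 WT and 2 KO-labelled pools of 4 mice were compared. The authors made cDNA from total RNA with an oligo(dT) low-input kit (SMARTer) that does not mark strand, aligned the reads to mm10 by STAR, took genes from GENCODE M20, and estimated expected counts per gene with Partek's E/M method. These expected counts were deposited without normalization. The authors also deposited a normalized signal, which equals the count plus 1 times 1 upper quartile factor per library, and these are the normalized counts given here. Whether the counting used strand is not given in the sources used here.

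Expected counts were rounded and tested with edgeR 4.0.16 under R 4.3.3 (glmQLFTest after the newer form of glmQLFit, legacy = FALSE), using upper quartile factors and no covariate. Genes entered if their normalized counts averaged 1 or more and summed to 10 or more, which 11711 did, p-values were adjusted by Benjamini-Hochberg over all of them, and all adjusted p-values in the text come from this test unless another is named. Calls needed an adjusted p under 0.05 and a 2-fold change. "Rose", "fell" and "changed" refer to an adjusted p under 0.05. The steps were tested on simulated data. The depth was 24796148 to 28782471 counts per library. Intervals cover counting error only.

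The genes named were Icam1, the 10 lincRNA genes of highest mean, those on role lists (nuclear RNAs, X inactivation, hosts of small RNAs, imprinted RNAs, growth RNAs, lung and endothelial RNAs), those called, those at the limit of 2 or near Icam1, and nearest protein-coding genes. Others are said to be chosen for their values, as were the changed genes under 2-fold, Gm42418, Gm19951, Gm15706, Lockd, Cdkn1b, Igkc, CT010467.1 and 2210408F21Rik. The genes and lists were chosen with earlier results of these data known. Exons were taken from GENCODE M21, where 124 of the 130 genes have the deposited coordinates. Promoters and microRNAs are RefSeq sequences (GRCm38). Replicate numbers occur in both groups, but the deviations of same-numbered libraries had a correlation of -0.06, so the numbers were not used as pairs. DESeq2 1.42.0, limma 3.58.1 on the log2 of the normalized count plus 1, TMM factors, other filters, the older glmQLFit, a replicate block and leaving out each library were tried as alternatives.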

Additional observations from a re-analysis of the deposited data

How the results depend on the processing

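The count of lincRNA genes at least 2-fold higher, 7, was 11 with DESeq2, 4 with the older glmQLFit and 1 with no filter on low counts, where more genes are tested, and the count lower, 2, was 1 with no filter. With at least 10 counts in every library the count lower was 1, since Gm6213 is not tested there. With no fold threshold the counts were 12 and 4. Over all genes, 578 were higher and 63 lower, against 273 and 39 with no filter and 1030 and 582 with no fold threshold. Without WT replicate 2 no lincRNA gene was called 2-fold higher, without WT replicate 1 there were 3, without KO-labelled replicate 2 4 and without KO-labelled replicate 1 6, so the range was 0 to 6. The count lower ranged from 1, without WT replicate 2 or KO-labelled replicate 2, to 2. Over all genes, leaving out a library gave 338 to 596 higher and 48 to 80 lower. Of the 16 changed genes, 4 kept an adjusted p under 0.05 with no filter, 14 with at least 10 counts, 13 with the older glmQLFit, 15 with limma, and 16 with TMM factors or DESeq2.

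With the replicate number as a block, 5 lincRNA genes were higher and 2 lower, and 601 and 67 of all genes. C030034L19Rik (adjusted p = 0.0545) and Gm30211 (0.0625) lost their calls under the block. The numbers share no animals, and with 2 pairs the correlation of -0.06 does not show pairing.

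Some log2 fold changes near 0 turned round. That of AU020206 was -0.025 with no filter, that of Snhg12 -0.014, and that of 1700020I14Rik -0.042. The last was also -0.0043 with DESeq2 and -0.023 with limma. Leaving out single libraries moved Xist from -0.21 to 0.20, AU020206 from -0.15 to 0.21, 1700020I14Rik from -0.027 to 0.034, Mir155hg from -0.10 to 0.088, Snhg12 from -0.26 to 0.29 and Ftx from -0.13 to 0.26. Over the 32 lincRNA genes named by rule, 284 of 351 values under an alternative kept their direction and side of the threshold, 52 kept the direction only and 15 turned round. The cause of these shifts was not tested. In the 64 genes between 2 and 5 normalized counts, single libraries of a group differed by a median of 1.31- to 1.36-fold. Means of 2 libraries vary less than that.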

Other observations

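Several well known long noncoding RNAs carry another gene type in the deposited annotation and so are not among the 130 lincRNA genes. Gas5, the host of many small nucleolar RNAs, had 183 and 191 normalized counts in WT and 197 and 205 in KO-labelled libraries (log2 fold change 0.13, adjusted p = 0.368). Tug1 had 46.9 and 50.1 against 65.4 and 57.02 (0.36, adjusted p = 0.0858), and Dleu2 had 15.2 and 8.97 against 16.9 and 15.03 (0.44, adjusted p = 0.321). Neither passed the test. Fendrr, a lung mesoderm RNA that lies beside Foxf1, had 1.32 and 2.44 against 8.23 and 9.21, a log2 fold change of 2.25 (SE 0.387, adjusted p = 0.00812). It was the only tested gene of its list of lung, endothelial and cardiac RNAs. Endothelial markers rose in the same libraries, with the sums given above, and their part in the level of Fendrr was not tested.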
